A study of Mus musculus with 18 samples.

Results

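The genes described here are 10 components of the MHC class I antigen presentation pathway, H2-K1, H2-D1, B2m, Tap1, Tap2, Tapbp, Psmb8, Psmb9, Nlrc5 and Erap1. They were chosen by name for their role in the pathway, with earlier results of these data known. All 10 were found among the 27997 genes of the expression table. RNA was measured in cultured neural stem cells (NSCs) and in astrocytes made from them, from lines with a history of expression of the dendritic cell receptor DNGR-1 (the product of Clec9a) and from a hippocampal line. The comparisons ask how far the genes change with the fate of the cells, and whether traced and hippocampal cultures differ in that change.

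MHC class I molecules display peptides from inside the cell to CD8+ T cells. Proteins are cut by the proteasome, whose catalytic subunits are exchanged for those of the immunoproteasome under interferon, and the peptides are pumped into the endoplasmic reticulum by the TAP transporter, trimmed there and loaded onto a heavy chain paired with β2-microglobulin. Neural cells are known for low class I expression at rest and for its increase under interferon, when IRF factors and the transactivator NLRC5 act on the promoters.

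The tdTomato line and the EYFP line were sorted from neurospheres of spinal cord cells. Their donors carried a DNGR-1 Cre allele with a Rosa reporter for tdTomato or EYFP, and the labels give the genotypes DNGR-1 +/- Tom+/- and DNGR-1 +/- EYFP+/-. Both are called traced below. The reference line came from the hippocampus of GlastCre mice with a floxed Huwe1 allele (Huwe1fl) and a Rosa reporter for EYFP, and was wild type for DNGR-1 (DNGR-1+/+). Tissue, Cre driver and floxed allele thus all differ between the traced and the hippocampal lines, and their parts cannot be told apart. The EYFP reporter is shared by the hippocampal and 1 traced line. All NSCs grew adherent for 4 days, and all astrocytes were differentiated with BMP4 (20 ng/ml) for 6 days. Each of the 6 groups had 3 libraries, from passages 10, 11 and 12 of 1 line. The p-values thus measure the spread between passages and not between animals. In the tests of traced against hippocampal libraries of the same fate, the difference between the traced lines is added to that spread. In the tests of fate over all lines, differences between the lines in their change are added. The age of the donor mice is not given in the labels.

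The values are log2 expression values relative to library size. Their form is that of a regularized log, on which changes of genes with few reads may be understated, but the transform is not named. The table holds no counts, so the depth of a value is unknown. A difference of 1 is a doubling, and a gene was tested where at least 3 of the libraries compared reached 3.32, which is 10 on the linear scale. In bulk cultures fewer cells with a transcript and less of it per cell cannot be told apart.

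Marker genes followed the fates, with exceptions. The proliferation gene Mki67 was 12.75 or higher in every NSC library and 7.15 or lower in every astrocyte library, and the astrocyte filament gene Gfap was at most 9.44 in NSCs and at least 14.69 in astrocytes. The NSC filament gene Nes was 10.74 to 11.19 in traced astrocytes but 13.43 to 13.80 in hippocampal astrocytes, where it overlapped the NSC range of 13.75 to 14.39. The summed level of the 5 NSC markers was 13.99 to 14.21 in traced astrocytes and 14.68 to 14.85 in hippocampal astrocytes. Of 6 microglia and macrophage markers, 3 (Ptprc, Itgam and Aif1) were below 0 in all 18 libraries, near the lowest values of the table (-2.15). The summed level of the 6 was 4.13 to 5.95 in traced and 3.97 to 4.19 in hippocampal astrocytes, and Tmem119 was the largest term in the tdTomato line. Mural cell and neuron lists held genes that rose with the astrocyte fate over all lines (Kcnj8 by 4.55 and Rbfox3 by 1.73). The NSC means of Kcnj8 were below the level for a test, at 3.03 (tdTomato), 2.51 (EYFP) and 2.64 (hippocampal). The oligodendrocyte genes Mag and Mog and the endothelial gene Cdh5 stayed below 0. The summed level of the 5 oligodendrocyte markers was nevertheless higher in astrocytes. It was 6.48 to 6.90 in traced and 6.86 to 6.94 in hippocampal NSCs, against 9.59 to 10.34 and 8.01 to 8.26 in the astrocytes. The dendritic cell gene Zbtb46 rose with the astrocyte fate by 0.39, and the astrocyte gene Aldh1l1 was lower in traced than in hippocampal cultures, by 3.44 in NSCs and 3.30 in astrocytes. The part of any of these in the class I values was not tested.

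Of the 10 genes, 7 lie on chromosome 17, in or next to the MHC (GRCm38). H2-K1 (chr17:33996017-34000347) and H2-D1 (chr17:35262730-35267499) encode the classical heavy chains, and Tapbp (chr17:33915899-33929292) lies beside the former. Psmb9, Tap1, Psmb8 and Tap2 follow each other between 34181987 and 34216321. Psmb9 and Tap1 are transcribed in opposite directions from start sites 226 bases apart. B2m lies on chromosome 2, Nlrc5 on chromosome 8 and Erap1 on chromosome 13. RefSeq promoters (GRCm38.p6) were matched for 8 of the 10 genes.

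Shown here are the stretches of sequence that the heavy chain promoters share with B2m, since these 3 genes make up the class I molecule itself. Class I promoters are known for an X2 box, which holds TGACG, followed by a Y box, which holds ATTGG. Both letter strings, in this order and 20 bases apart on either strand, were found in the 250 bases before the start site of H2-K1, H2-D1 and B2m. Of 32851 promoter windows of the same length, 30 (0.0913%) held the pair at this distance, and 125 (0.381%) at 15 to 25 bases. H2-M3, a non-classical class I heavy chain gene, was the other listed gene among them. The letters were chosen after the sequences were seen. In capitals are the letters of both boxes, on the strand of the gene:
H2-K1 (chr17:34000359-34000388, minus strand): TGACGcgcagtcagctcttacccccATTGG
H2-D1 (chr17:35262993-35263022, plus strand): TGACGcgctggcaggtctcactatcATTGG
B2m (chr2:122147609-122147638, plus strand): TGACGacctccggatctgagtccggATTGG
H2-M3 (chr17:37270188-37270217, plus strand): TGACGcttctccaattcccattctaATTGG

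The first base of the pair lay 41 bases before the RefSeq start of H2-K1, 101 before that of H2-D1 and 78 before that of B2m. Between the boxes, H2-K1 and H2-D1 had the same base at 13 of 20 positions, and H2-K1 and B2m at 3 of 20. Upstream of the boxes, both heavy chain genes held GGGGATTCCCC, the letters of an NF-κB site, which 10 windows (0.0304%) contained. B2m held GAAANNGAAA, the core of an interferon-stimulated response element (ISRE), which 978 windows (2.98%) contained. The exact ISRE letters were not found before either heavy chain gene, nor the exact NF-κB letters before B2m. Variants of these letters were not searched, so such a site may still be present there. The strings do not overlap each other. These stretches have the NF-κB or ISRE letters in capitals:
H2-K1 (chr17:34000438-34000467, minus strand): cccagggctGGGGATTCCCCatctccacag
H2-D1 (chr17:35262914-35262943, plus strand): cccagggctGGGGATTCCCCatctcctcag
B2m (chr2:122147538-122147567, plus strand): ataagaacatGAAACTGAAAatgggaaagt

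The 3 strings were not in the 250 bases before the start of Tap1, Tapbp, Psmb8, Psmb9 or Erap1, which says only that these letters are not in that window. A match is a description of the sequence and not of a bound site.

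Hippocampal astrocytes had the highest mean level of 9 of the 10 genes, the exception being Erap1. In NSCs of all lines the pathway was expressed unevenly along its steps. Levels per length are the log2 level less log2 of the length in kb of all exons of the gene, merged over its transcripts. This length was 860 bases for B2m, 3381 for Psmb8 and 3660 for Psmb9, and where it exceeds the transcript expressed the value is too low. On this scale B2m ranked first and Tapbp second among the 10 in each of the 6 groups. B2m was at 10.26 to 10.82 in the NSC groups and 10.76 to 11.96 in the astrocyte groups. Psmb8, Psmb9 and Nlrc5 took the last 3 ranks in every group, with Nlrc5 at -0.48 to -0.25 in the NSC groups on the same scale.

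**Figure D1:**
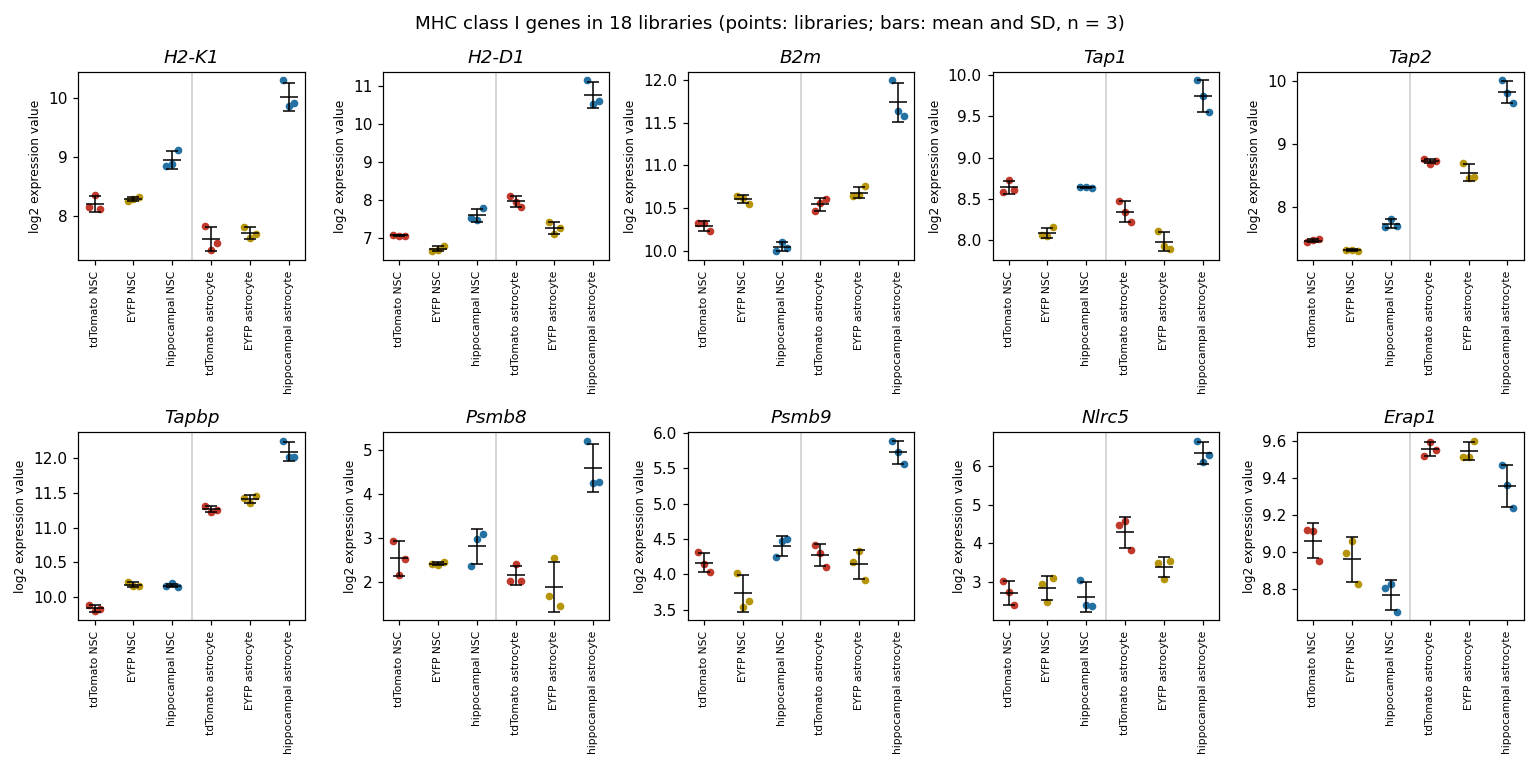
Log2 expression value of each of the 10 genes (vertical axis, its range set for each gene) in the 3 libraries of each of the 6 groups, NSCs to the left of the grey line and astrocytes to the right. Points are libraries and bars the mean and SD (n = 3). Hippocampal astrocytes stand above every other group in 9 panels, and in the Erap1 panel all astrocyte groups lie above the NSC groups.

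The heavy chains moved apart between the lines. H2-K1, the classical heavy chain K, was 8.15, 8.36 and 8.12 in the libraries of tdTomato NSCs, 8.26, 8.29 and 8.33 in EYFP NSCs and 8.85, 8.88 and 9.13 in hippocampal NSCs. In astrocytes it was 7.83, 7.43 and 7.56 (tdTomato), 7.82, 7.64 and 7.69 (EYFP) and 10.30, 9.86 and 9.91 (hippocampal). The traced astrocytes thus lay below all NSC libraries and the hippocampal astrocytes above all of them. H2-K1 fell with differentiation by 0.60 ± 0.12 in the tdTomato line (limma log2 difference ± SE, adjusted p = 0.00103) and by 0.58 ± 0.08 in the EYFP line (limma, adjusted p = 0.000123), and rose by 1.07 ± 0.12 in the hippocampal line (limma, adjusted p = 1.6e-05). Pooled over the lines the difference was -0.04 ± 0.20 (limma, adjusted p = 0.872).

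H2-D1, the classical heavy chain D, was 7.09, 7.07 and 7.06 in tdTomato NSCs, 6.68, 6.69 and 6.80 in EYFP NSCs and 7.54, 7.47 and 7.80 in hippocampal NSCs. In astrocytes it was 8.11, 7.96 and 7.84 (tdTomato), 7.42, 7.12 and 7.27 (EYFP) and 11.15, 10.52 and 10.60 (hippocampal). Astrocytes lay above the NSCs of their own line in all 3 lines, without overlap. The rise was 0.90 ± 0.09 in the tdTomato line, 0.55 ± 0.11 in the EYFP line and 3.16 ± 0.15 in the hippocampal line, the last an 8.91-fold difference (limma, adjusted p = 1.48e-05, 0.00134 and 4.3e-08). H2-D1 and H2-K1 thus changed in opposite directions in both traced lines and in the same direction in the hippocampal line. Of the 75-base stretches of their transcripts, 3.10% of those of H2-K1 and 5.56% of those of H2-D1 occur in other genes, most of them in H2-Q10 for H2-K1 and in H2-Q1 for H2-D1, so that part of their reads could belong to those genes.

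B2m, which encodes the light chain shared by all class I molecules, was 9.99 to 10.64 in all NSC libraries and 10.46 to 10.75 in the traced astrocytes. In hippocampal astrocytes it was 12.00, 11.64 and 11.58, above every other library. Its rise was 1.70 ± 0.09 in the hippocampal line, 0.25 ± 0.05 in the tdTomato line and 0.07 ± 0.05 in the EYFP line, where it did not pass the test (limma, adjusted p = 1.11e-07, 0.00169 and 0.214). None of the 75-base stretches of B2m occurs in another gene.

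The peptide transporter showed a split between its subunits. Tap1 was 8.59, 8.73 and 8.61 in tdTomato NSCs, 8.06, 8.05 and 8.16 in EYFP NSCs and 8.65, 8.65 and 8.63 in hippocampal NSCs, and in astrocytes 8.48, 8.34 and 8.22, then 8.12, 7.94 and 7.90, then 9.94, 9.74 and 9.55 in the same order of lines. It fell by 0.29 ± 0.08 in the tdTomato line (limma, adjusted p = 0.00829), differed by -0.11 ± 0.09 in the EYFP line (limma, adjusted p = 0.287) and rose by 1.10 ± 0.09 in the hippocampal line (limma, adjusted p = 1.54e-06). Tap2, its partner subunit, was 7.29 to 7.81 in all NSC libraries, 8.46 to 8.77 in all traced astrocyte libraries and 10.02, 9.81 and 9.66 in hippocampal astrocytes. Tap2 therefore rose in every line, by 1.27 ± 0.07, 1.24 ± 0.09 and 2.10 ± 0.09 (tdTomato, EYFP and hippocampal; limma, adjusted p = 1.55e-07, 1.19e-06 and 1.89e-08).

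Tapbp encodes tapasin, which bridges the transporter and the heavy chain during loading. It was 9.79 to 10.22 in NSCs, 11.23 to 11.46 in traced astrocytes and 12.26, 12.01 and 12.02 in hippocampal astrocytes, so that the 3 classes of libraries did not overlap. It rose by 1.43 ± 0.04, 1.24 ± 0.05 and 1.93 ± 0.06 in the same order of lines (limma, adjusted p = 5.45e-09, 1.54e-08 and 2.99e-09). Of its 75-base stretches, 18.6% are shared with other genes, most of them with Gm19412.

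Erap1, the aminopeptidase that trims peptides in the endoplasmic reticulum, differed from the rest. It was 8.67 to 9.12 in NSCs and 9.24 to 9.60 in astrocytes, with hippocampal astrocytes (9.47, 9.36 and 9.24) below the traced ones (9.52 to 9.60). Its rise was 0.50 ± 0.06, 0.59 ± 0.07 and 0.59 ± 0.07 (limma, adjusted p = 4.81e-05, 4.76e-05 and 4.53e-05). The interval of the difference between origins in this rise was -0.23 to 0.14.

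The immunoproteasome subunit genes Psmb8 and Psmb9 were weakly expressed outside hippocampal astrocytes. Psmb8, the subunit β5i, was 1.47 to 3.10 in the other 15 libraries, below the level required for a test, and 5.22, 4.26 and 4.29 in hippocampal astrocytes. Psmb9, the subunit β1i, was 3.54 to 4.50 in all NSC and traced astrocyte libraries and 5.89, 5.74 and 5.56 in hippocampal astrocytes. In the hippocampal line Psmb9 rose by 1.32 ± 0.16 (limma, adjusted p = 4.07e-05). Psmb8 differed by 1.78 there, with no test given, since it reached the level for one in the astrocytes only. In the traced lines Psmb9 differed by 0.10 ± 0.18 and 0.42 ± 0.21 (limma, adjusted p = 0.597 and 0.0949).

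The constitutive catalytic subunits, which the inducible ones replace, were lower in astrocytes. Psmb5, Psmb6 and Psmb7 fell in each of the 3 lines, where 37.4% to 39.5% of all genes were lower, in hippocampal cultures by 0.20, 0.30 and 0.18 (limma, adjusted p = 0.00817, 0.000219 and 0.00835). Per length of merged exons they remained far above the immunoproteasome pair in hippocampal astrocytes, at 10.19, 10.21 and 9.80 against 2.83 for Psmb8 and 3.85 for Psmb9. Psmb10, the third inducible subunit, stood at 7.32 on that scale and at 7.13 to 7.22 in the other 5 groups, and differed by 0.13 ± 0.10 between hippocampal NSCs and astrocytes (limma, adjusted p = 0.261).

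Nlrc5, the transactivator of class I genes, was 2.37 to 3.10 in all NSC libraries, below the level required for a test. In astrocytes it was 4.48, 4.57 and 3.83 (tdTomato), 3.50, 3.08 and 3.55 (EYFP) and 6.66, 6.10 and 6.28 (hippocampal). The hippocampal astrocytes lay above all others, and the tdTomato astrocytes above the EYFP astrocytes. The difference between fates was 1.57 in the tdTomato line and 3.74 in the hippocampal line, with no test given, since the gene reached the level for one in the astrocytes only.

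Psmb8 and Nlrc5 are therefore left out of the counts over genes, which cover the other 8. By line, 8 of 8 were higher in astrocytes of the hippocampal line, 5 were higher and 2 lower in the tdTomato line, and 4 were higher and 1 lower in the EYFP line. Of all genes tested, 77.3%, 79.3% and 74.9% passed in these comparisons in either direction, so that a passed test alone sets none of the genes apart. The median log2 difference of the 8 was 1.51 in the hippocampal line, against 0.01 for all 14781 genes tested, and 0.37 and 0.48 in the tdTomato and EYFP lines, against 0.00 and 0.00. With the line as a covariate over all 18 libraries, 6 of the 8 were higher and none lower (81.9% of all genes passed). H2-K1 and Tap1 did not pass.

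**Figure D2:**
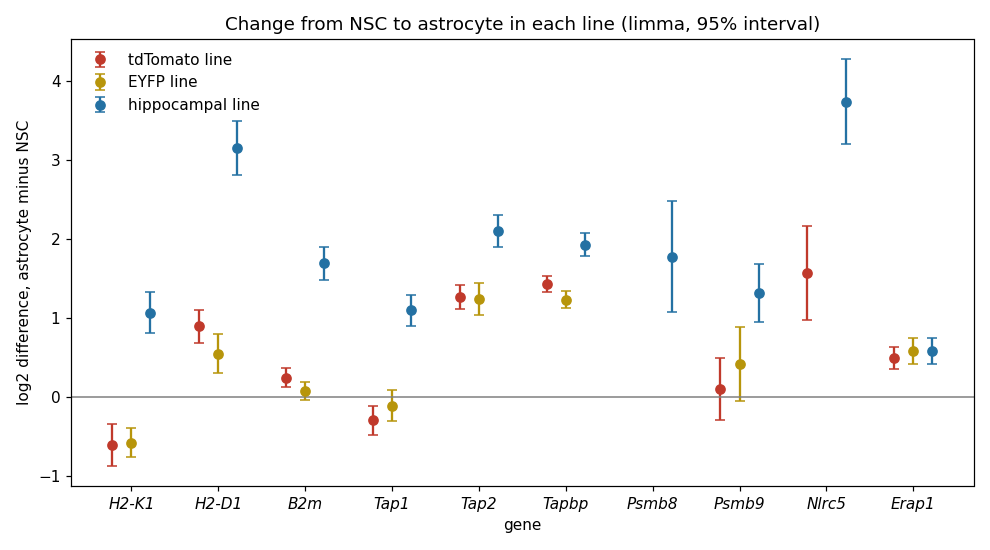
Log2 difference between astrocytes and NSCs (vertical axis) of each gene in the tdTomato, EYFP and hippocampal lines, fitted with limma on 3 against 3 libraries. Bars are 95% intervals, and genes below the level required for a test in a line have no point. The hippocampal points lie highest for all genes but Erap1, where the 3 lines overlap, and H2-K1 lies below 0 in both traced lines.

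The change with fate differed between origins. Tested as an interaction over all 18 libraries, it was smaller in traced than in hippocampal cultures for 7 of the same 8 genes (46.2% of all genes tested passed, 25.9% in this direction). The difference of the changes was -2.43 ± 0.16 for H2-D1, -1.66 ± 0.14 for H2-K1 and -1.53 ± 0.10 for B2m. It was -1.30 ± 0.11 for Tap1, -1.06 ± 0.21 for Psmb9, -0.85 ± 0.10 for Tap2 and -0.60 ± 0.07 for Tapbp (limma, largest adjusted p of these 7 = 0.000445). For Erap1 it was -0.05 ± 0.09 (limma, adjusted p = 0.691). Tap2 and Tapbp, which rose by over 1 in the traced lines too, were those with the smallest differences among the 7. The values for Nlrc5 and Psmb8 were -2.69 and -2.23 and are given with no test, since Nlrc5 reached the level for one in astrocytes only and Psmb8 in hippocampal astrocytes only.

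Between the traced lines the change with fate passed for none of the 8 genes with limma (13.7% of all genes passed). At an unadjusted p under 0.05, 1 gene passed, Tapbp, with a difference of 0.20 ± 0.08 (tdTomato minus EYFP; limma, adjusted p = 0.0972). A missed threshold does not show that the lines act alike, and the interval for Psmb9 ran from -0.82 to 0.20. Nlrc5 differed by 1.04, or by 0.59 with 10 added before the log, and is again given with no test.

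In astrocytes, the 6 traced libraries were lower than the 3 hippocampal ones for 7 of the 8 genes and higher for Erap1 (52.0% of all genes passed, 27.9% lower and 24.1% higher). H2-D1 was lower by 3.14 ± 0.23 on the log2 scale, an 8.80-fold difference, H2-K1 by 2.36 ± 0.12 and B2m by 1.13 ± 0.09, as were the subunits Tap1 by 1.58 ± 0.13 and Tap2 by 1.19 ± 0.10. Nlrc5 was lower by 2.51 ± 0.32, Psmb9 by 1.52 ± 0.15 and Tapbp by 0.75 ± 0.07 (limma, largest adjusted p of these 8 = 9.25e-05). Psmb8 differed by -2.57, or by -1.28 with 10 added before the log, having reached the level for a test in the hippocampal libraries only. No traced library reached the lowest hippocampal one for any of these 9 genes. Erap1 was higher by 0.19 ± 0.05 (limma, adjusted p = 0.0112), and lost the call without hippocampal astrocyte replicate 3 (limma, adjusted p = 0.0617). Among the hippocampal astrocytes, replicate 1 was the highest library for all 10 genes.

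In NSCs the differences were smaller in size than in astrocytes for 7 of 8 genes tested, the exception being Erap1. Among the 8, H2-K1 (lower by 0.70 ± 0.08), H2-D1 (by 0.71 ± 0.13) and Tap2 (by 0.34 ± 0.07) were lower in traced NSCs, and B2m (0.41 ± 0.10) and Erap1 (0.24 ± 0.07) higher (19.4% of all genes passed). Their adjusted p in limma were 0.000251, 0.00392, 0.00843, 0.0151 and 0.0426. B2m was therefore higher in traced NSCs and lower in traced astrocytes than in the hippocampal cultures of the same fate. Erap1 lost its call without any 1 of 8 of the 9 libraries, B2m without hippocampal replicate 1 or 3 and Tap2 without hippocampal replicate 2, while H2-K1 and H2-D1 kept theirs without any 1 library.

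**Figure D3:**
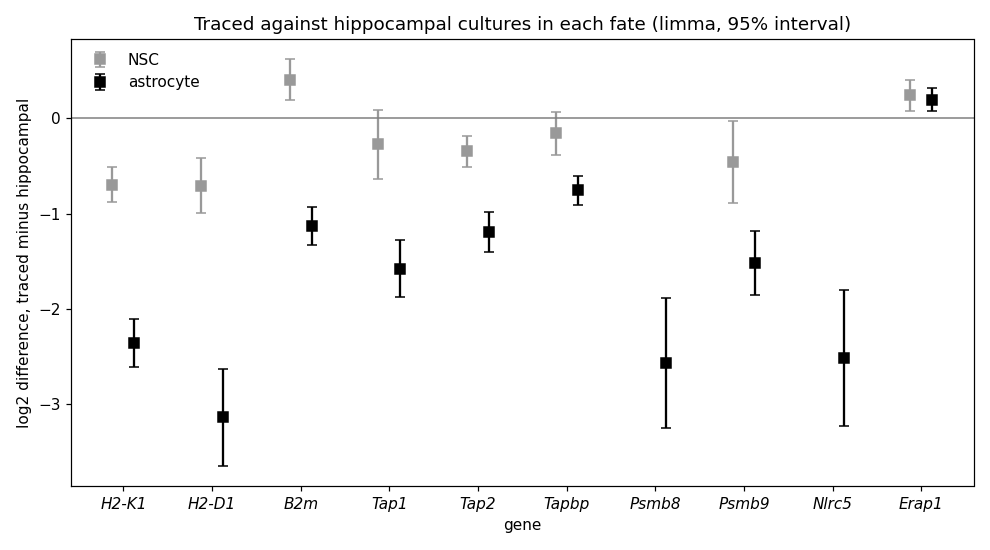
Log2 difference between traced (6 libraries) and hippocampal (3 libraries) cultures of each gene, in NSCs (grey) and astrocytes (black), fitted with limma. Bars are 95% intervals, and Psmb8 and Nlrc5 were below the level required for a test in NSCs. In astrocytes all genes but Erap1 lie below 0, from -0.75 to -3.14, and in NSCs the tested genes lie between -0.71 and 0.41.

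The traced lines were compared with each other. In NSCs, Tap1 (by 0.55 ± 0.07) and H2-D1 (by 0.35 ± 0.08) were higher in the tdTomato line and Tapbp (by 0.35 ± 0.04) and B2m (by 0.31 ± 0.05) lower, of 8 genes tested (33.2% of all genes passed; limma, adjusted p = 0.000685, 0.0133, 0.000828 and 0.00169). H2-D1 lost the call without tdTomato replicate 2 or EYFP replicate 1 (limma, adjusted p = 0.0511 and 0.0538). In astrocytes, H2-D1 (by 0.70 ± 0.11) and Tap1 (by 0.36 ± 0.09) were higher in the tdTomato line, among 9 tested (11.2% of all genes passed; limma, adjusted p = 0.00386 and 0.0394). The call of Tap1 was lost without any 1 of 4 libraries (tdTomato replicate 1 or 2, EYFP replicate 2 or 3). Nlrc5 differed by 0.92 ± 0.26 (limma, adjusted p = 0.0582) and passed without tdTomato replicate 3, its lowest library in that line (limma, adjusted p = 0.0328). With 10 added before the log, the difference was 0.54.

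Other class I heavy chains were read beside these genes. Of 12 in the table, 9 were tested in astrocytes, and 7 of these reached the level for a test in both origins. Of the 7, 6 were lower in traced than in hippocampal cultures and 1, Mr1, was higher by 0.19, against 27.9% lower and 24.1% higher among all genes. H2-T23, which encodes the peptide receptor Qa-1, was 5.68 to 6.53 in NSCs, 7.08 to 7.98 in traced astrocytes and 10.79, 10.35 and 10.19 in hippocampal astrocytes. It rose by 2.39 ± 0.31 over all lines (limma, adjusted p = 1.15e-06). H2-T24 was 5.28 to 5.81 in traced NSCs and 3.10 to 3.32 in hippocampal NSCs, but 5.88 to 6.53 and 7.48 to 8.07 in the astrocytes, so that the order of the origins turned between the fates. H2-Q4 was lower by 3.09 in traced astrocytes (limma, adjusted p = 5.72e-07). H2-Q6 had means of 1.22 in traced and 4.30 in hippocampal astrocytes and reached the level for a test in the latter only. Shared 75-base stretches reach 20.7% in H2-Q4, 21.1% in H2-Q6 and 40.0% in H2-T22, and their values are uncertain to that extent. Over all lines, the lipid-presenting Cd1d1 fell by 1.78 ± 0.10 with differentiation (limma, adjusted p = 1.82e-11). H2-Q7 differed by -1.44 ± 0.37 over all lines (limma, adjusted p = 0.00186), but by 0.48 ± 0.26 in the hippocampal line (limma, adjusted p = 0.113). In the traced lines it reached the level for a test in NSCs only, with astrocyte means of 2.73 (tdTomato) and 2.54 (EYFP). This limits the value over all lines too. The change of H2-Q7 differed between origins by -2.89, given with no test for the same reason.

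Of 16 other processing genes, none was higher and 10 were lower in traced than in hippocampal astrocytes, against 27.9% lower among all genes, and none passed in NSCs in either direction with limma. The differences were small next to those of the inducible genes, with a median of -0.18 in astrocytes. The endoplasmic reticulum chaperones Hspa5 (by 0.88 ± 0.07) and Calr (by 0.58 ± 0.07) had the largest ones (limma, adjusted p = 1.95e-06 and 8.18e-05). With fate, over all lines, 5 rose and 6 fell, where 81.9% of all genes passed in either direction. The tapasin relative Tapbpl rose by 0.83 and the aminopeptidase gene Lnpep by 0.68, and the proteasome activator subunit gene Psme3 fell by 0.43 (limma, adjusted p = 2.87e-07, 4.14e-10 and 2.76e-09). Hspa5 differed by -0.33 over all lines (limma, adjusted p = 0.00346), but by 0.15 ± 0.06 in the hippocampal line (limma, adjusted p = 0.0582), and its change differed between origins by -0.73 ± 0.09 (limma, adjusted p = 5.48e-06).

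Among 30 regulators, 14 were lower and 5 higher in traced than in hippocampal astrocytes, against 27.9% lower and 24.1% higher among all genes. Over all lines 19 rose and 6 fell with differentiation, where 81.9% of all genes passed in either direction. Irf7, an inducible interferon regulatory factor, was 3.19 to 4.00 in NSCs, 4.94, 5.17 and 5.11 in tdTomato astrocytes, 4.07, 3.98 and 3.43 in EYFP astrocytes and 7.49, 6.89 and 6.63 in hippocampal astrocytes. Like Nlrc5, Irf7 was thus ordered hippocampal, tdTomato, EYFP in astrocytes, with no overlap. The feedback inhibitor Socs1 was lower in traced astrocytes by 1.51 ± 0.18 (limma, adjusted p = 4.7e-05). Irf9, another interferon regulatory factor, rose by 1.51 ± 0.14 with differentiation over all lines (limma, adjusted p = 1.92e-08).

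Of 6 subunits of the factors RFX and NF-Y, which bind the X and Y boxes, 3 were higher and none lower in traced than in hippocampal astrocytes, and 3 did not pass. This share is close to that of all genes, of which 52.0% passed. Rfx5, a subunit of RFX, and Nfya, a subunit of NF-Y, were higher there, by 0.38 ± 0.04 and 0.36 ± 0.04 (limma, adjusted p = 4.54e-05 and 7.67e-05). Nfyb and Nfya fell with differentiation over all lines, by 0.75 ± 0.04 and 0.72 ± 0.04 (limma, adjusted p = 2.25e-12 and 1.27e-11). In NSCs, 5 of the 30 regulators were higher and 3 lower in the traced cultures, where 10.6% of all genes were higher and 8.8% lower. Irf1, an interferon-induced activator, was higher there by 0.64 ± 0.10 and Rela, an NF-κB subunit, by 0.29 ± 0.04 (limma, adjusted p = 0.00197 and 0.000346), and Irf9 was lower by 0.27 and the interferon receptor gene Ifnar1 by 0.24 (limma, adjusted p = 0.0219 and 0.00666).

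**Figure D4:**
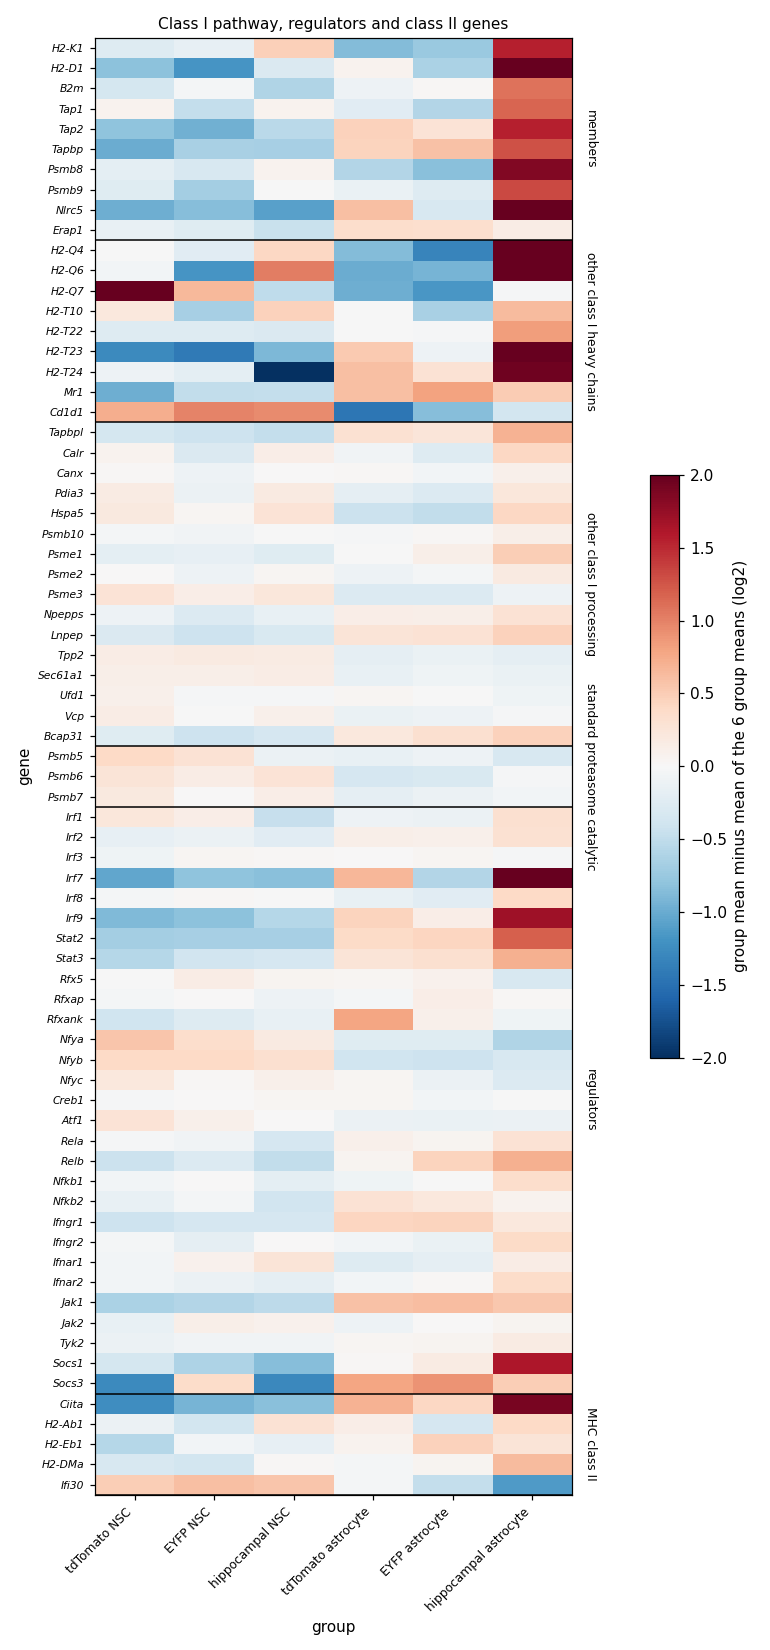
Group means of 72 genes (rows) in the 6 groups (columns), each less the mean of its 6 group means, on a log2 colour scale that ends at 2 above and below 0. Rows are the 10 class I genes, other class I heavy chains and processing genes, constitutive proteasome subunits, regulators and class II genes that reach 3.32 in a group, less 1 gene that is not reported. The right column is the reddest for most heavy chains and for Irf7, Irf9 and Socs1, and pale for most of the other processing genes.

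MHC class II genes, which serve presentation to CD4+ T cells, ranged widely in level. The chain gene H2-Aa and the invariant chain gene Cd74 were at most 1.74 and 1.99 in any library, below the level required for a test, while H2-Ab1 was 3.85 to 5.55, Ifi30 3.29 to 5.49 and the peptide exchange gene H2-DMa 6.23 to 7.61. Ciita, the class II transactivator, was 1.25 to 1.99 in NSCs, 2.75 to 3.34 in traced astrocytes and 4.27, 4.53 and 4.43 in hippocampal astrocytes. There were 9 class II genes in the table, and 5 were tested in astrocytes, where H2-DMa was lower in traced cultures by 0.63 and Ifi30 higher by 0.88 (limma, adjusted p = 0.000445 and 0.0169). Ciita differed by -1.35 there, and 2 of the 6 traced libraries reached the level for a test. Over all lines, Ifi30 fell with differentiation by 1.10 (limma, adjusted p = 1.6e-05). Ciita and H2-Eb1 differed by 2.00 and 0.52, each having reached the level for a test in astrocytes only.

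The genes whose pattern over the 6 groups was most like the mean of the 10 were named by the root-mean-square difference of centred group means, among 4623 genes with sufficient level and range. Irgm1, an interferon-induced GTPase, was nearest at 0.13, with group means of 8.88, 8.77 and 8.95 in NSCs and 9.10, 9.26 and 11.02 in astrocytes (tdTomato, EYFP, hippocampal). It was followed by Dtx3l (0.13), 1700007K13Rik (0.15), Arrdc1 (0.15) and Nrcam (0.16), of which Nrcam, a neuronal adhesion molecule gene, was the most strongly expressed, at 11.46 to 13.62. The likeness is over 6 groups and is a description.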

How the data were processed

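RNA-seq of 18 libraries (6 groups of 3) was analysed. Per the labels and the methods, the authors aligned single-end reads with STAR (version 2.5.2), estimated gene counts with RSEM (version 1.3.0) on Ensembl GRCm38 and normalised them with DESeq2 (version 1.18.1). The deposited values are log2 values in the form of a regularized log, a transform that is not named in the sources used here. The labels state at least 25 M reads of 76 bases per library, while the methods name another kit and another read length. Counts and depth per library cannot be read from log2 values.

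Columns were matched to samples by the sample descriptions. Differences were tested on the values as they stand in limma 3.58.1 under R 4.3.3, letting the variance follow a trend, with Benjamini-Hochberg adjustment over all genes tested. Genes with at least 3.32 (log2 of 10) in at least 3 of the libraries compared were tested, and 0.05 was the threshold. The comparison of fates over all lines had the line as a covariate, and interactions were fitted over all 18 libraries. Tested on simulated data, the fits recovered between 89.6% and 98.5% of the 67 genes with a log2 change of 1 in each of the 10 comparisons, with 6 to 11 false calls in each among the unchanged genes.

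The 10 genes and the other lists were chosen with earlier results of these data known. All 10 genes are named, and of each other list up to 2 called genes with the largest rise and 2 with the largest fall over all lines and between origins in each fate, with defining markers by level (of the marker lists, only some are given). Some listed genes are not reported here, though they remain in the counts. Psmb7, Psmb10, H2-T22 and H2-M3 fall outside this rule and were chosen after their values or sequences were seen. Positions, lengths and shared 75-base stretches are those of GENCODE M21 on GRCm38, and promoters those of RefSeq. Alternatives were no filter, a filter of 100, median centring, quantile normalisation, adding 10 before the log, no trend, a replicate block, 6 group means over all libraries, and leaving out each library.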

Additional observations from a re-analysis of the deposited data

Results flagged for a closer look

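For 7 genes the test of the difference itself found that the change from NSC to astrocyte differed between the traced and the hippocampal cultures (limma interaction over 18 libraries). As traced minus hippocampal on the log2 scale, the values were -1.66 for H2-K1, -2.43 for H2-D1, -1.53 for B2m, -1.30 for Tap1, -0.85 for Tap2, -0.60 for Tapbp and -1.06 for Psmb9. The values for Psmb8 and Nlrc5 were -2.23 and -2.69, and these are descriptions, since Psmb8 reached the level for a test in hippocampal astrocytes only and Nlrc5 in astrocytes only. H2-K1 was the gene whose change had opposite signs and passed in all 3 lines. Dixon's criterion marked no library in 40 checks of sets of 6 or 9 libraries pooled over lines. The groups of 3 were not checked, and in sets that mix lines this far apart a single deviating library could hardly be marked.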

How the results depend on the processing

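For the 10 genes, 60 of 91 differences passed, and none of these changed sign in 1041 refits. The 60 include differences of Psmb8 and Nlrc5 that are given above with no test, so they are a count of fits only. In the comparisons of fates, 74.9% to 81.9% of all genes passed. There were 25 refits in which a call was lost, spread over 7 of the 60 differences. Among them Psmb9 over all lines was 0.31 with quantile normalisation (limma, adjusted p = 0.0682), and Erap1 between origins in NSCs lost its call with no filter, median centring, quantile normalisation and without a trend. The counts of genes passed moved as follows. Between origins in NSCs 8 instead of 5 of the 10 genes passed when 6 group means were fitted over all libraries, and 3 to 5 with 1 library left out (3 without any 1 hippocampal replicate). Between the traced lines in astrocytes it was 1 instead of 2 with no filter or without a trend, and 1 to 3 with 1 library left out (1 without tdTomato replicate 1 or 2 or EYFP replicate 3). For the change with fate between the traced lines it was 1 instead of 0 with median centring or quantile normalisation (Tapbp), and 0 to 1 with 1 library left out.

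Differences that changed sign had not passed, and their cause was not tested. With median centring these were H2-K1 over all lines (0.0115), Erap1 in the interaction between origins (0.0256) and H2-K1 in that between traced lines (9e-04). With quantile normalisation they were Psmb8 over all lines (-0.0644), Psmb9 in the tdTomato line (-0.196) and Erap1 in the interaction between origins (0.0042). With 1 library left out, H2-K1 over all lines ranged from -0.1547 to 0.0289, Erap1 between traced lines in astrocytes from -0.0086 to 0.0403, Erap1 between origins in the change from -0.1055 to 0.0103, and H2-K1 and Tap2 between the traced lines in the change from -0.1373 to 0.0620 and from -0.0107 to 0.1102.

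Replicate numbers were not used to pair the libraries in the main fits. Same-numbered libraries of the same fate deviated together with a mean correlation of 0.106 (18 pairs, 9 of them over 0.1). Within a fate, 17 of 18 libraries correlated best with their own number. Same-numbered libraries of the same line in the other fate had a mean correlation of -0.023 (none of 9 pairs over 0.1). The numbers thus went together within a fate and not across fates, a hint from the data that the main tests between lines leave out. With the replicate block, 5 instead of 2 of the 10 genes passed between the traced lines in astrocytes (B2m, Tapbp and Nlrc5 in addition), and 1 instead of 0 for the change between the traced lines (Nlrc5, at the level for a test in astrocytes only).

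Over all genes, counts moved by over 1.5 times in some comparisons. Between origins in NSCs, 2822 became 4864 with 6 group means and 1718, 1718 and 1657 without hippocampal replicates 1, 2 and 3. Between the traced lines in NSCs, 4748 became 2970 with no filter and 2719, 2786 and 2802 without tdTomato replicate 2 or 3 or EYFP replicate 1. Between the traced lines in astrocytes, 1641 became 975 with no filter, 3049 with the replicate block, and 936, 1093 and 1009 without tdTomato replicate 2 or EYFP replicate 1 or 3. For the change between the traced lines, 2068 became 1317 without tdTomato NSC replicate 3.

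There was 1 hippocampal line, so that its own difference from other hippocampal lines and that between origins cannot be told apart. The scale limits the weakly expressed genes, and adding 10 before the log gave 1.01 for Psmb8 in the hippocampal line, against 1.78, and -1.15 in the interaction between origins, against -2.23. For Nlrc5 it gave 0.84 in the tdTomato line, against 1.57.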
